A study of Danio rerio with 12 samples.

Results

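The 34 genes described here encode aminoacyl-tRNA synthetases and were measured by RNA-seq in whole zebrafish larvae with and without inorganic arsenic. They were chosen by symbol from the 32105 gene IDs of the count files, as an amino-acid letter followed by "ars" with an optional 1, 2, 1b or 1l, together with eprs, eprs1, farsa and farsb. Of the 34, 17 were classed as cytosolic, 15 with a symbol ending in 2 as mitochondrial, and GARS1 and KARS1, whose products are known to serve both compartments, as a class of their own. All 34 passed the filter on low counts. The name table gives many zebrafish genes a human-style symbol in capitals.

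Aminoacyl-tRNA synthetases attach each amino acid to its tRNA, which the ribosome then uses to read the message. Cytosolic protein synthesis and mitochondrial protein synthesis draw on largely separate sets of these enzymes, both encoded in the nucleus. In mammals many of the cytosolic enzymes are transcribed under the factor ATF4 when the translation initiation factor eIF2α is phosphorylated by stress kinases, and several of them sit together in a multisynthetase complex.

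The study set wild-type TAB14 larvae beside the offspring of F2 parents homozygous for a CRISPR-made 8 bp deletion in exon 3 of as3mt, which leads to an early stop codon. That gene's product, arsenite methyltransferase, methylates arsenic. Each genotype was kept without inorganic arsenic (iAs) or with 1 mM iAs from 6 hours post-fertilization, and pools of 10 whole larvae were taken at about 119 hours, at 5 days of age. Each of the 4 groups held 3 libraries. The mutant line was kept in a different background, WT-ABNYU, and strain therefore differs wherever genotype does. The titles number the libraries of a group cl1 to cl3 without saying what the number stands for, and the spread that the p-values rest on may be technical in part.

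Each library held between 28909467 and 43759270 counts. The targeted transcript AS3MT stood at 14.3, 16.8 and 17.2 CPM (library-scaled counts) in untreated wild type and at 9.21, 9.91 and 9.52 in the untreated mutant. With iAs it stood at 9.77, 9.73 and 9.93 CPM in wild type and at 3.02, 3.31 and 3.51 in the mutant. The mutant libraries lay below the wild-type libraries of the same treatment, and counts over the whole gene do not show whether protein was made. Among the markers of other cell types, all 11 of exocrine pancreas fell in both genotypes with iAs. Their summed level ran from 9953 to 12108 CPM in untreated wild type, 6413 to 7437 in treated wild type, 6981 to 8098 in the untreated mutant and 2723 to 3483 in the treated mutant. With iAs in wild type and in the mutant, 7 and 7 of 10 hepatocyte markers also fell, while 2 and 3 rose, by up to 1.41 on the log2 scale. Of 8 neuron markers 7 and 6 fell and 0 and 1 rose, of 9 enterocyte markers 6 and 8 fell and 1 and 1 rose, and of 3 epidermis markers 2 and 1 fell and 1 and 1 rose. The enterocyte sum overlapped in wild type, at 2475 to 2760 CPM without iAs and 2421 to 2701 with it. In the mutant the enterocyte sum ran from 3098 to 3278 CPM without iAs and from 2425 to 2734 with it. All 4 cartilage markers fell in both genotypes (median log2 changes -0.82 and -0.72). Of 4 erythrocyte markers listed only 2 were matched to a gene ID, alas2 and hbae1.1. Both rose in wild type, where their sum ran from 11.1 to 11.5 CPM without iAs and from 21.2 to 24.7 with it. In the mutant alas2 of these fell (-1.56) and hbae1.1 was not called (0.01), with sums of 11.6 to 15.7 and 4.35 to 4.87 CPM. Of 8 skeletal muscle markers 2 rose and 0 fell in wild type. In the mutant 3 rose and 1 fell, with changes from -0.87 to 0.94. The muscle markers summed to between 29466 and 33269 CPM over all libraries, and 0 markers of any list were at 0 in a group. Over all genes tested with iAs, 22.6% were called higher and 22.2% lower in wild type, and 31.1% and 32.6% in the mutant. Some marker counts, such as 1 of 3 epidermis markers lower in the mutant, were near those shares. The markers moved with the comparisons below, and their part in the synthetase values was not tested. In whole larvae, fewer cells of a type and less RNA per cell cannot be told apart.

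The first comparison asked how synthetase transcripts of wild-type larvae responded to iAs. All 17 cytosolic synthetases rose, with a median of 0.79 on the log2 scale and up to 1.22. For mitochondrial synthetases, 5 of 15 rose and 0 fell, with a median of 0.25. GARS1 and KARS1 both rose. Over all 23096 genes tested, 22.6% were called higher and 22.2% lower (edgeR's quasi-likelihood test, Benjamini-Hochberg adjusted p below 0.05), with a median change of 0.01. All 17 cytosolic synthetases had a mean of at least 10 CPM, and among all such genes 29.9% were called higher. Of the mitochondrial members 13 of 15 had a mean of 2 to 20 CPM, and among all such genes 21.9% were called higher.

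**Figure D1:**
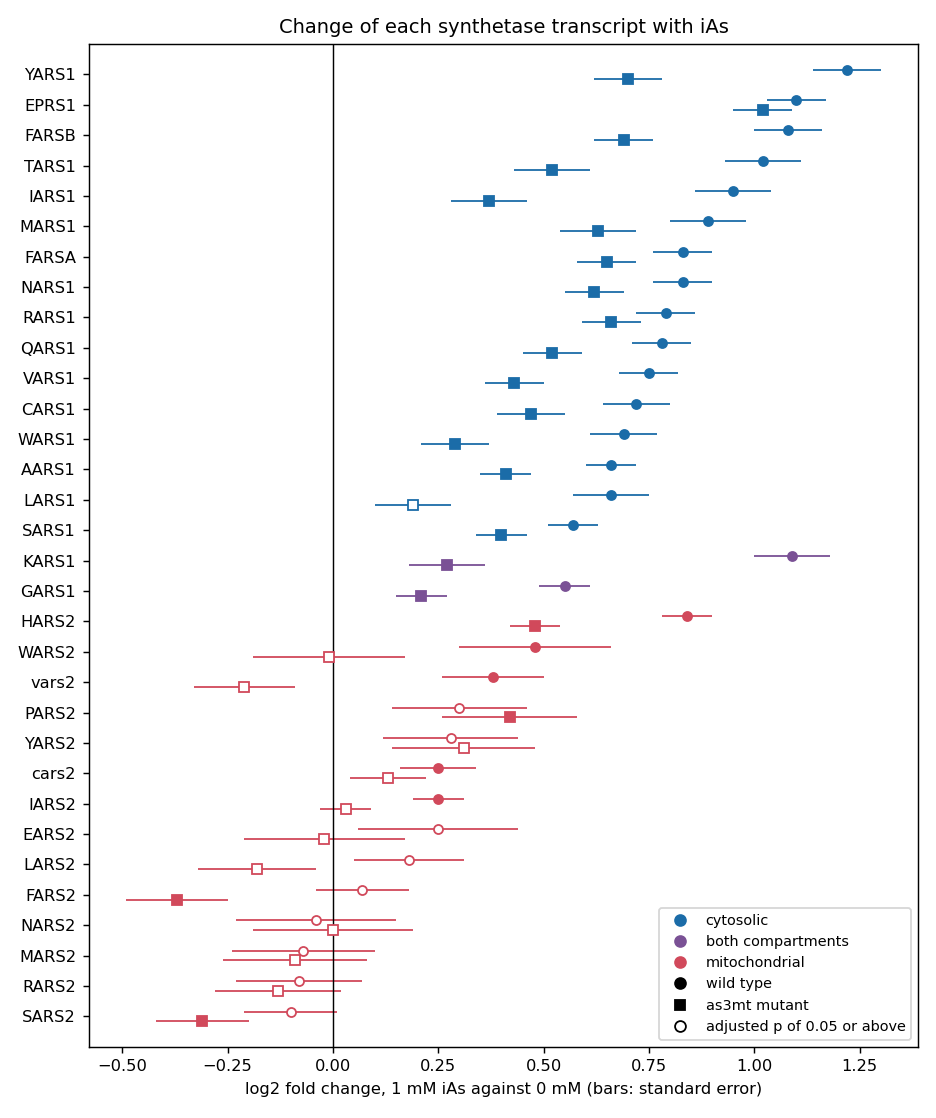
Log2 fold change of 32 synthetase transcripts with 1 mM iAs against 0 mM (x axis; bars, standard error of the fit) in wild type (circles) and in the as3mt mutant (squares), 3 libraries per group, with open symbols for an adjusted p of 0.05 or above. The 16 cytosolic values drawn lie right of 0 in both genotypes, between 0.57 and 1.22 in wild type and between 0.19 and 1.02 in the mutant, while the 14 mitochondrial values run from -0.10 to 0.84 and from -0.37 to 0.48.

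YARS1, the tyrosine enzyme, changed most in wild type. It stood at 47.4, 45.1 and 45.2 CPM without iAs and at 99.1, 104 and 118 CPM with it. Every treated library lay above every untreated one, a 2.34-fold rise (log2 fold change 1.22, SE 0.08, edgeR adjusted p = 2.9e-09). EPRS1, a fused enzyme that charges glutamate and proline and belongs to the multisynthetase complex, stood at 189, 172 and 187 CPM without iAs and at 376, 397 and 401 CPM with it. The groups did not overlap, and EPRS1 rose 2.15-fold (SE 0.07 on the log2 scale, edgeR adjusted p = 1.9e-09).

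The phenylalanine enzyme is built from 2 kinds of subunit, and both transcripts rose. FARSB, the beta subunit, stood at 34.8, 30.3 and 30.7 CPM without iAs and at 63.5, 64.6 and 74.0 CPM with it, a 2.11-fold rise (1.08, SE 0.08, edgeR adjusted p = 3.2e-09). FARSA, the alpha subunit, stood at 51.7, 45.0 and 44.5 CPM without iAs and at 75.8, 90.1 and 85.6 CPM with it, a 1.78-fold rise (0.83, SE 0.07, edgeR adjusted p = 5.0e-08). In both genes each treated library was above each untreated one.

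TARS1, the threonine enzyme, stood at 62.8, 69.6 and 71.8 CPM without iAs and at 131, 133 and 149 CPM with it, a 2.02-fold rise (1.02, SE 0.09, edgeR adjusted p = 4.8e-08). IARS1, the isoleucine enzyme of the complex, stood at 81.3, 78.1 and 85.6 CPM and then at 145, 161 and 169 CPM, a 1.94-fold rise (0.95, SE 0.09, edgeR adjusted p = 9.6e-08). MARS1, the methionine enzyme of the complex, stood at 34.6, 34.4 and 37.6 CPM and then at 63.7, 61.9 and 71.5 CPM, a 1.85-fold rise (0.89, SE 0.09, edgeR adjusted p = 2.7e-07). The treated libraries of all these genes stood clear of the untreated ones.

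KARS1, the lysine enzyme whose gene serves cytosol and mitochondria and whose product joins the complex, stood at 180, 175 and 174 CPM without iAs and at 333, 380 and 410 CPM with it. It rose 2.12-fold (1.09, SE 0.09, edgeR adjusted p = 1.7e-08), with no overlap and with the treated libraries more spread than the untreated. GARS1, the glycine enzyme of both compartments, stood at 140, 140 and 138 CPM and then at 197, 204 and 211 CPM, a 1.46-fold rise (0.55, SE 0.06, edgeR adjusted p = 1.1e-06). Its treated libraries also lay above the untreated ones.

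**Figure D2:**
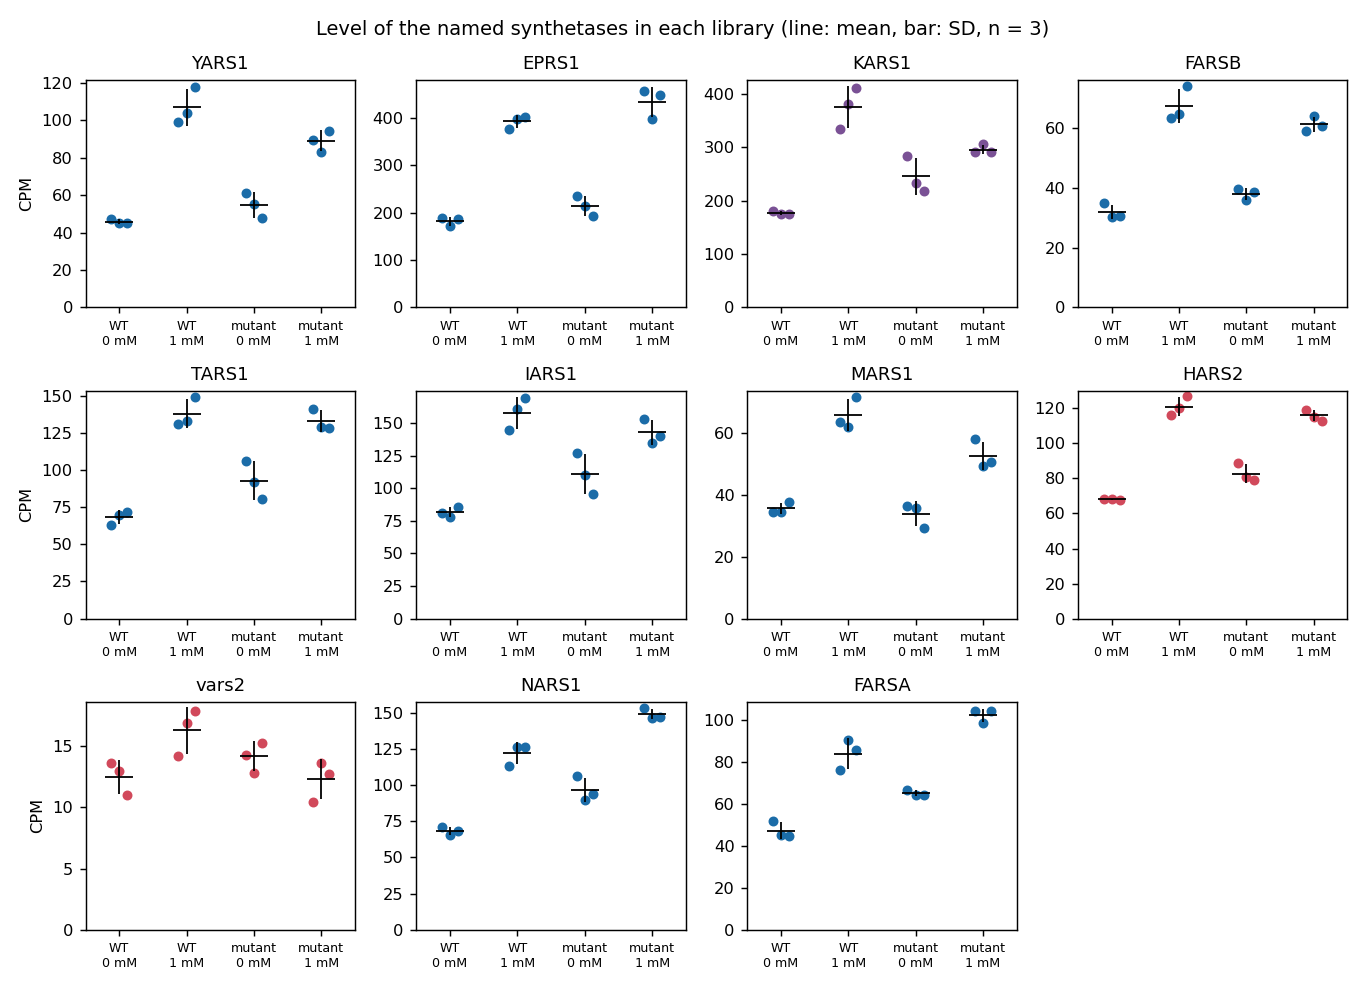
CPM of 11 synthetases in each library (y axis, from 0) by genotype and iAs dose in mM, with horizontal lines for means and vertical bars for SD (n = 3). YARS1 lies between 45.1 and 47.4 in untreated wild type and between 99.1 and 118 with iAs, while KARS1 in the mutant lies between 218 and 284 without iAs and between 290 and 306 with it.

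Among mitochondrial synthetases of wild type, HARS2, named for histidine, stood apart in size. It stood at 68.0, 68.3 and 67.6 CPM without iAs and at 116, 120 and 127 CPM with it, a 1.79-fold rise without overlap (0.84, SE 0.06, edgeR adjusted p = 3.9e-09). HARS2 was placed in the mitochondrial class by its symbol alone. The RefSeq table (GRCz12tu) lists 1 zebrafish gene named hars, 0 named hars1 and 0 named hars2. Which compartment this ID (ENSDARG00000003693) serves is therefore uncertain. HARS2 is the only member named for histidine, and the cytosolic class as drawn here holds no histidine enzyme. Without HARS2, 4 of 14 mitochondrial synthetases rose in wild type, with a median of 0.21.

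The other mitochondrial rises in wild type were smaller. IARS2, for isoleucine, went from 39.9, 38.9 and 39.5 to 46.4, 47.4 and 46.6 CPM (0.25, SE 0.06, edgeR adjusted p = 0.00246). The valine enzyme vars2 went from 13.6, 13 and 11 to 14.2, 16.9 and 17.9 CPM (0.38, SE 0.12, edgeR adjusted p = 0.0137). In both genes the treated libraries were above the untreated, by a narrow margin for vars2. WARS2, for tryptophan, changed by 0.48 (SE 0.18, edgeR adjusted p = 0.0363) and cars2, for cysteine, by 0.25 (SE 0.09, edgeR adjusted p = 0.0299). The vars2 call was lost without replicate 3 of either wild-type group (edgeR adjusted p = 0.0684 untreated, 0.0881 treated). The cars2 call was lost without any wild-type library except treated replicate 2 (edgeR adjusted p from 0.0522 to 0.158), and the WARS2 call without untreated replicate 1 or 2 or treated replicate 1 or 3 (0.0810 to 0.137). Over the 12 fits that each left out 1 library, 2 to 5 mitochondrial synthetases rose and 17 of 17 cytosolic ones did.

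The second comparison asked the same of as3mt mutant larvae. In the mutant 16 of 17 cytosolic synthetases rose and 0 fell, with a median of 0.52 and a range from 0.19 to 1.02. For mitochondrial synthetases 2 rose, 3 fell and 10 were not called, with a median of -0.02. GARS1 and KARS1 again rose, by 0.21 and 0.27. Over all genes tested in the mutant 31.1% were called higher and 32.6% lower, with a median of 0.01. Of genes with a mean of at least 10 CPM 38.5% were called higher, and of genes with a mean of 2 to 20 CPM 28.1% were.

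EPRS1 went from 235, 214 and 193 CPM to 456, 396 and 447 CPM in the mutant, a 2.02-fold rise (1.02, SE 0.07, edgeR adjusted p = 1.5e-09). YARS1 went from 61.3, 55.3 and 47.8 to 89.5, 83.3 and 94.3 CPM, a 1.62-fold rise (0.70, SE 0.08, edgeR adjusted p = 9.7e-07). FARSB went from 38.0 ± 1.93 to 61.3 ± 2.57 CPM (SD, n = 3), a 1.61-fold rise (0.69, SE 0.07, edgeR adjusted p = 2.5e-07). Treated and untreated mutant libraries did not overlap in these genes. MARS1 went from 36.5, 35.9 and 29.3 to 57.9, 49.4 and 50.6 CPM, a 1.55-fold rise (0.63, SE 0.09, edgeR adjusted p = 5.3e-06). TARS1 went from 106, 92.0 and 80.6 to 141, 129 and 128 CPM, a 1.43-fold rise (0.52, SE 0.09, edgeR adjusted p = 4.6e-05). IARS1 went from 127, 110 and 96.0 to 153, 135 and 140 CPM, a 1.29-fold rise (0.37, SE 0.09, edgeR adjusted p = 0.00118). These groups did not overlap either, but for TARS1 and IARS1 the untreated mutant libraries were widely spread, with replicate 1 the highest.

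LARS1, the leucine enzyme of the complex, was the one cytosolic member not called in the mutant. It stood at 51.3, 48.2 and 38.4 CPM without iAs and at 52.3, 51.3 and 54.4 CPM with it (0.19, SE 0.09, edgeR adjusted p = 0.0604). The groups met at 51.3 CPM. LARS1 was called with DESeq2 (0.21, DESeq2 adjusted p = 0.0475), with DESeq2 size factors in edgeR (edgeR adjusted p = 0.0481) and with genes of a mean count of at least 50 (edgeR adjusted p = 0.0435). Without untreated replicate 1 it was called (0.27, edgeR adjusted p = 0.0159), as it was without treated replicate 2 (0.24, edgeR adjusted p = 0.0435). A second gene named for leucine, lars1a (ENSDARG00000090988), lies outside the symbol rule. It stood at 14.2, 14.1 and 15.7 CPM in untreated and 21.3, 20.2 and 22.3 CPM in treated wild type, and rose there (0.54, edgeR adjusted p = 0.00102). In the mutant it stood at 14.3, 13.9 and 9.66 CPM without iAs and 13.6, 14.8 and 12.9 CPM with it, overlapping and not called (0.13, edgeR adjusted p = 0.362). How reads were divided between these similarly named genes is not given in the sources used here.

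KARS1 in the mutant went from 284, 233 and 218 to 290, 306 and 291 CPM, a 1.21-fold rise (0.27, SE 0.09, edgeR adjusted p = 0.0103). The groups were next to each other, with untreated replicate 1 only just below the treated libraries. The call was lost without untreated replicate 2 (0.22, edgeR adjusted p = 0.0616) or replicate 3 (0.18, edgeR adjusted p = 0.0781).

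The mitochondrial synthetases of the mutant moved in both directions. FARS2, for phenylalanine, fell from 14.5, 14.6 and 10.9 to 10.7, 10.4 and 9.87 CPM (-0.37, SE 0.12, edgeR adjusted p = 0.0104). SARS2, for serine, fell from 7.72, 7.36 and 9.10 to 6.85, 6.71 and 5.89 CPM (-0.31, SE 0.11, edgeR adjusted p = 0.0205). In both genes each treated library was below each untreated one, narrowly for FARS2. The FARS2 call was lost without untreated replicate 2 (edgeR adjusted p = 0.0512). The SARS2 call was lost without replicate 3 of either mutant group (edgeR adjusted p = 0.0949 untreated, 0.0908 treated).

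HARS2 in the mutant rose from 88.8, 80.6 and 79.1 to 119, 115 and 113 CPM (0.48, SE 0.06, edgeR adjusted p = 1.2e-06). PARS2, for proline, rose from 3.31, 2.64 and 3.36 to 4.07, 4.42 and 3.98 CPM (0.42, SE 0.16, edgeR adjusted p = 0.0265). Neither gene's groups overlapped, but the PARS2 call was lost without replicate 2 of the untreated (0.31, edgeR adjusted p = 0.133) or treated (0.40, edgeR adjusted p = 0.0603) mutant. The treated groups of vars2 overlapped the untreated: 14.3, 12.8 and 15.3 CPM without iAs and 10.4, 13.6 and 12.7 with it (-0.21, SE 0.12, edgeR adjusted p = 0.136).

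Cytosolic and mitochondrial enzymes for the same amino acid were set side by side for 10 amino acids. The log2 change of the cytosolic gene was the larger in 10 of 10 pairs in wild type, by 0.21 to 0.95 with a median of 0.69. In the mutant it was also the larger in 10 of 10, by 0.30 to 0.79 with a median of 0.51. In wild type the methionine pair lay at 0.89 (MARS1) and -0.07 (MARS2), and the tyrosine pair at 1.22 (YARS1) and 0.28 (YARS2). In the mutant the arginine pair lay at 0.66 (RARS1) and -0.13 (RARS2). The difference within pairs was not tested. Taken per library, the log2 ratio of RARS1 to RARS2 in the mutant went from 3.29 (SD 0.28, n = 3) to 4.07 (SD 0.15, n = 3), without overlap. The log2 ratio of WARS1 to WARS2 went from 2.09 (SD 0.13, n = 3) to 2.30 (SD 0.09, n = 3) in wild type, with overlapping libraries, and overlapped in the mutant too.

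**Figure D3:**
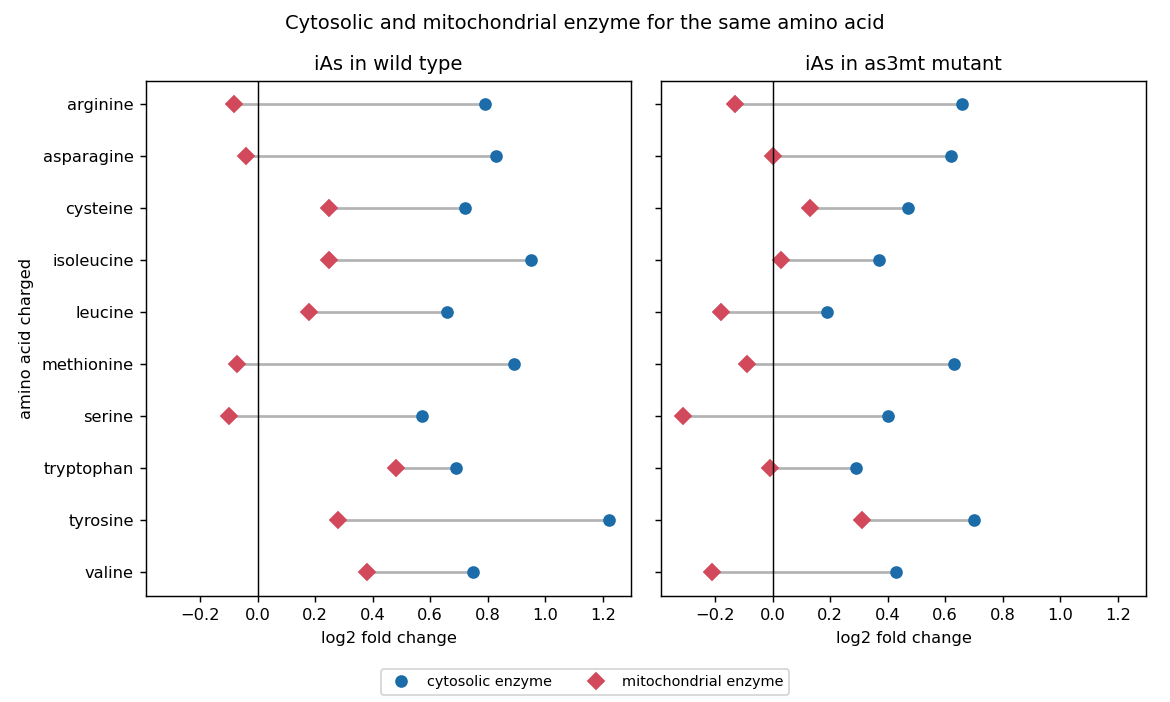
Log2 fold change with iAs (x axis) of the cytosolic (circles) and mitochondrial (diamonds) synthetase for each of 10 amino acids (y axis), in wild type (left) and in the as3mt mutant (right), joined by a line. The cytosolic value lies to the right in 10 of 10 pairs in both genotypes, by a median of 0.69 and 0.51.

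The precision of the classes differed. The median SE of a log2 change with iAs in wild type was 0.07 for cytosolic and 0.13 for mitochondrial members. Counts per library ran from 345 to 17598 with a median of 2685 for cytosolic genes, and from 66 to 5568 with a median of 203 for mitochondrial genes. A change of the size of the smaller cytosolic ones was therefore less readily called in the mitochondrial class, and a mitochondrial member that was not called is not shown to be unchanged.

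As a sum over the class, cytosolic synthetases held 1271, 1231 and 1270 CPM in untreated wild type and 2074, 2209 and 2321 CPM with iAs. In the mutant the sum was 1587, 1445 and 1358 CPM without iAs and 2257, 2093 and 2194 CPM with it. The untreated mutant lay above untreated wild type, and the treated groups of both genotypes overlapped. The mitochondrial sum was 199, 196 and 197 CPM in untreated and 260, 266 and 277 CPM in treated wild type. In the mutant it was 223, 212 and 210 CPM and then 242, 245 and 238 CPM. Treated libraries lay above untreated ones in both genotypes. Without HARS2 the mitochondrial sum was 129 ± 1.74 and 146 ± 3.46 CPM in untreated and treated wild type (SD, n = 3), and 132 ± 1.81 and 126 ± 3.94 CPM in the mutant (SD, n = 3).

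**Figure D4:**
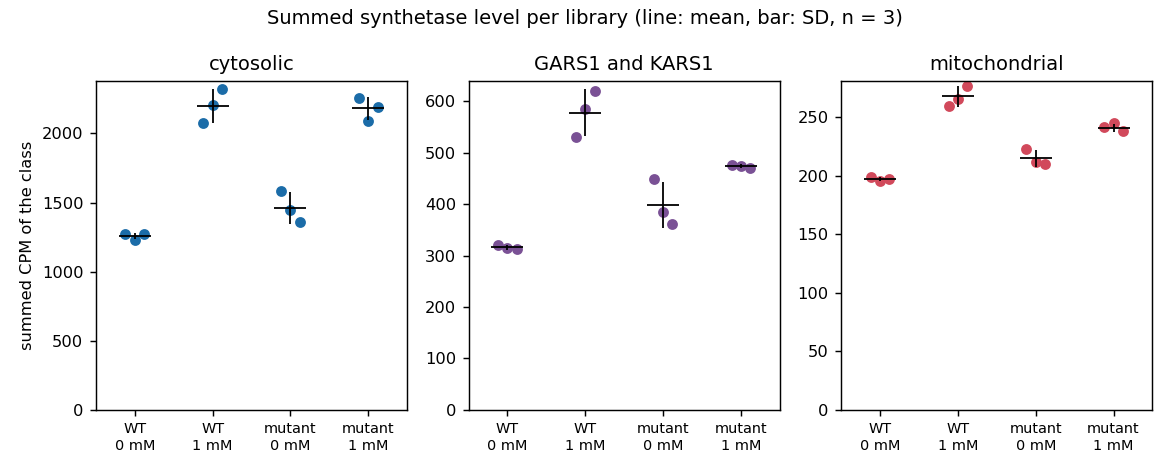
Summed CPM of the 17 cytosolic synthetases, of GARS1 and KARS1, and of the 15 mitochondrial synthetases in each library (y axis, from 0) by genotype and iAs dose in mM, with lines for means and bars for SD (n = 3). The cytosolic sum lies between 1231 and 1271 in untreated wild type and between 1358 and 1587 in the untreated mutant, and the treated groups overlap.

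Synthetases of the multisynthetase complex and cytosolic synthetases outside it gave like counts. The complex held 8 members, among them IARS1, MARS1 and also KARS1, which is not in the cytosolic class. All 8 rose in wild type, with a median of 0.84, and 7 of 8 rose in the mutant, with a median of 0.48. All 10 cytosolic members outside it rose in both genotypes, with medians of 0.79 and 0.49. Of the scaffold proteins that hold the complex together, AIMP2 rose by 0.45 in wild type and 0.59 in the mutant (edgeR adjusted p = 1.9e-05 and 2.4e-07). The 2 genes named AIMP1 differed. One (ENSDARG00000060036) rose in wild type (0.60, edgeR adjusted p = 5.7e-06) and in the mutant (0.35, edgeR adjusted p = 5.7e-04). The other (ENSDARG00000036894) rose in the mutant (0.65, edgeR adjusted p = 6.1e-06) and was not called in wild type (-0.15, edgeR adjusted p = 0.216), and its responses differed (interaction 0.80, edgeR adjusted p = 1.8e-04). EEF1E1, the third kind of scaffold protein, fell in the mutant (-0.46, edgeR adjusted p = 2.2e-04).

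The third comparison set untreated mutant larvae against untreated wild type, with strain differing as well. Of the cytosolic synthetases 10 of 17 were higher in the mutant and 0 lower, with a median of 0.23. Of the 15 members classed as mitochondrial 1 was higher, HARS2 (0.29, SE 0.06, edgeR adjusted p = 0.00332), and 0 were lower. Without HARS2, whose compartment is uncertain, 0 of 14 were higher. Over all genes 6.64% were called higher and 6.82% lower. NARS1, the asparagine enzyme, stood at 71.0, 65.2 and 68.4 CPM in wild type and at 106, 90.0 and 94.1 in the mutant, 1.42-fold higher (0.50, SE 0.07, edgeR adjusted p = 5.8e-05). KARS1 was 1.39-fold higher (0.47, SE 0.09, edgeR adjusted p = 0.00105), and FARSA, at 66.6, 64.2 and 64.1 CPM in the untreated mutant, was 1.38-fold higher (0.46, SE 0.07, edgeR adjusted p = 2.5e-04). In these genes every mutant library was above every wild-type one.

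In treated wild type replicate 3 was the highest of its group for 16 of 17 cytosolic synthetases. In the treated mutant replicate 1 was for 12 of 17, and in untreated wild type replicate 3 was for 9. Replicate 1 of the untreated mutant was the highest of its group for 16 of 17 cytosolic synthetases. Their sum averaged 1463 ± 115 CPM (SD, n = 3) in this group and 1402 CPM without that library, against 1257 ± 22.6 CPM (SD, n = 3) in untreated wild type. Without it 5 cytosolic synthetases were called higher, and the count was also 5 without any one of the untreated wild-type libraries and 6 without untreated mutant replicate 2. The calls of AARS1, EPRS1, FARSB, SARS1 and VARS1 were lost without untreated mutant replicate 1 (edgeR adjusted p from 0.126 to 0.227). Those of IARS1, TARS1, NARS1, FARSA and KARS1 held in all fits that left out 1 library. Exocrine pancreas markers were lower in the untreated mutant for 11 of 11 genes, and their part in this difference was not tested.

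In the fourth comparison, of treated mutant against treated wild type, the cytosolic class moved both ways. NARS1 (0.29, edgeR adjusted p = 0.00144) and FARSA (0.28, edgeR adjusted p = 0.0029) were higher in the mutant, as they were without iAs. LARS1 (-0.43), MARS1 (-0.32), QARS1, for glutamine (-0.26), WARS1, for tryptophan (-0.39), and YARS1 (-0.27) were lower, which makes 2 higher and 5 lower of 17 with a median of -0.05. Of all genes 22.5% were called higher and 27.9% lower, with a median of -0.04. All 5 of the lower cytosolic genes encode class I enzymes, 1 of the 2 structural classes of synthetases, and both of the higher genes encode class II enzymes. The 5 of 17 lower were near the share of all genes, and the 2 of 17 higher were below it. Of the 17 cytosolic members, 9 are of class I alone and 7 of class II alone. The structural classes were not tested against each other. GARS1 (-0.19, edgeR adjusted p = 0.0137) and KARS1 (-0.34, edgeR adjusted p = 0.00278) were lower as well. Both encode class II enzymes, so the split by class held only within the cytosolic class as drawn here.

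For mitochondrial synthetases 5 of 15 were lower in the treated mutant and 0 higher, with a median of -0.20. The 5 of 15 lower were near the share of all genes (27.9%), and the 0 of 15 higher were below it (22.5%). The lower ones included FARS2 (-0.46), of class II, and WARS2 (-0.47), vars2 (-0.42) and IARS2 (-0.25), of class I. The calls of YARS1 and GARS1 were lost without replicate 3 of treated wild type or replicate 2 of the treated mutant (edgeR adjusted p from 0.0634 to 0.122). The WARS2 call was lost without replicate 1 or 3 of treated wild type or 3 of the treated mutant (0.0767 to 0.178). This comparison shares its libraries with both responses to iAs, so its values are not independent of theirs.

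The difference between the responses of the genotypes was tested directly as an interaction, the response of the mutant minus that of wild type. It was lower than 0 and called for 8 of 17 cytosolic members, for 2 of 15 mitochondrial members and for both GARS1 and KARS1, and it was higher for 0 of 34. With library size alone as the scaling, 12 of 17 cytosolic members were called, CARS1, NARS1, QARS1 and SARS1 being added (edgeR adjusted p from 0.0178 to 0.0385), and 5 of 15 mitochondrial members. Over all genes 12.3% were called higher and 17.9% lower. The median was -0.25 for cytosolic and -0.22 for mitochondrial members, against -0.05 for all genes.

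KARS1 differed most between the genotypes, with 1.09 in wild type and 0.27 in the mutant (interaction -0.82, SE 0.12, edgeR adjusted p = 7.4e-05). Its untreated level was already higher in the mutant, and its treated level was lower than in treated wild type. IARS1 followed, with 0.95 and 0.37 (interaction -0.59, SE 0.12, edgeR adjusted p = 0.00141). The mitochondrial vars2 changed by 0.38 and -0.21 (interaction -0.59, SE 0.17, edgeR adjusted p = 0.0129). YARS1 (-0.52), TARS1 (-0.50), LARS1 (-0.46), WARS1 (-0.41), FARSB (-0.39), HARS2 (-0.35), GARS1 (-0.34), VARS1 (-0.32) and AARS1 (-0.25) were also called. EPRS1 (-0.09, SE 0.10, edgeR adjusted p = 0.573) was not. The AARS1 call, at an edgeR adjusted p of 0.0455, was lost without any one of 10 of the libraries (0.0534 to 0.168). The VARS1 call was lost without untreated replicate 1 or treated replicate 3 of wild type, or without mutant untreated replicate 1 or treated replicate 2 or 3 (0.0541 to 0.0866).

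**Figure D5:**
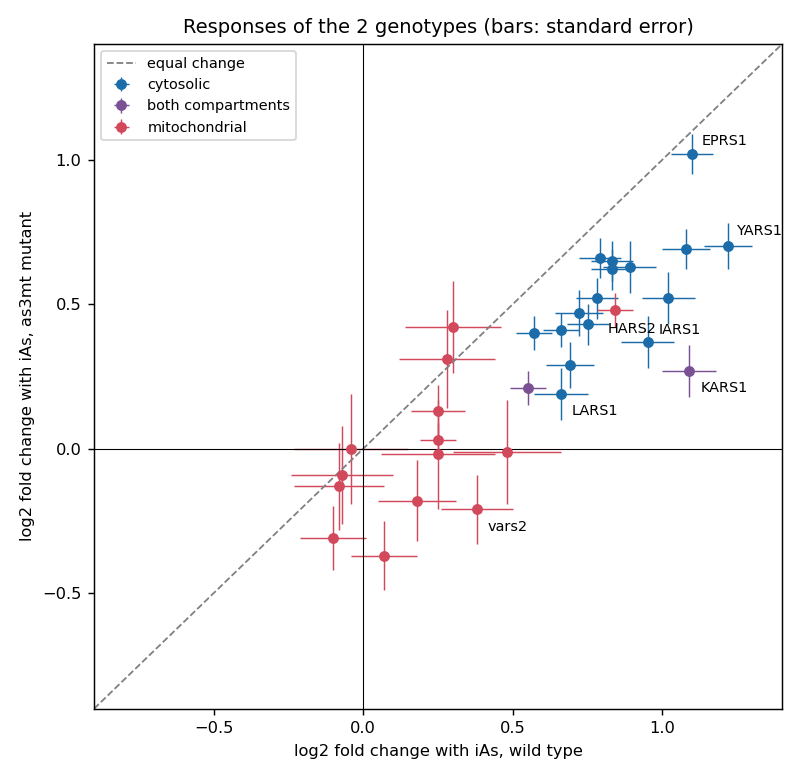
Log2 fold change with iAs in wild type (x axis) against that in the as3mt mutant (y axis) for 32 synthetases, with SE bars and a dashed line of equal change. EPRS1 (2.15-fold and 2.02-fold) lies near the line, and KARS1 (1.09 and 0.27) and IARS1 (0.95 and 0.37) lie well below it.

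Genes that work with the synthetases were taken from lists of related functions, and all shares are to be read against the percentages of all genes given above. The amidotransferase subunits and the formyltransferase that complete charging in mitochondria (GATB, GATC, QRSL1 and mtfmt) had 0 of 4 called in either response. Of mitochondrial translation factors 5 of 10 rose and 0 fell in wild type, led by GFM2 (0.54), and 2 rose and 1 fell in the mutant. Of cytosolic elongation factors and their regulators 6 of 14 rose and 2 fell in wild type, and 8 rose and 3 fell in the mutant. Elongation factor 1A, which carries charged tRNA to the ribosome, is encoded by several genes that moved in unlike ways. Its gene with the most counts, eef1a1l1, at 9291 CPM (SD 262, n = 3, not scaled by length) in untreated wild type, was not called in wild type (0.09, edgeR adjusted p = 0.218) and rose in the mutant (0.19, edgeR adjusted p = 0.00915). Of the genes named EEF1A1, ENSDARG00000039502 (84.7 CPM in untreated wild type) fell in both genotypes (-0.42 and -0.51), as did ENSDARG00000069951 (21.1 CPM; -0.51 and -1.27). The gene eef1a2 (2.05 CPM) rose in wild type (0.58) and fell in the mutant (-1.01). How reads were divided between these similar genes is not given in the sources used here. Of tRNA maturation genes 6 of 16 rose and 0 fell in wild type, and 7 rose and 3 fell in the mutant. Those that rose included XPOT, the exporter of tRNA from the nucleus (0.57 and 0.84), and RTCB, the tRNA ligase (1.09 in wild type). RTCB was not called in the mutant (0.17, edgeR adjusted p = 0.0939). The largest change of this list in the mutant was a fall, of pop1 (-0.87). TSEN34 rose in wild type (0.57) and fell in the mutant (-0.53). Of 8 relatives and editing enzymes 5 rose in wild type and 3 in the mutant, and 0 fell. The peptidyl-tRNA hydrolase PTRH2 rose by 1.44 and 0.77.

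The list of eIF2α kinases and phosphatase subunits held 9 genes, with GCN1 and the genes of eIF2α itself (EIF2S1) among them. Of the 9, 7 rose and 1 fell in wild type, and 5 rose and 0 fell in the mutant. EIF2AK4 (GCN2), the kinase that senses uncharged tRNA, rose by 0.64 and 0.80. The phosphatase subunit ppp1r15a rose by 0.85 and 2.83, and ppp1r15b by 1.39 and 2.29. In the list of Atf4 and its known mammalian targets other than synthetases, 14 of 24 rose and 5 fell in wild type, and 12 rose and 6 fell in the mutant. Of the 24, 8 had a larger and 5 a smaller log2 response in the mutant by the interaction test, and for synthetases these were 0 and 12 of 34.

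Single genes of that list moved in unlike ways. The factor gene atf4b rose by 0.52 in wild type and 1.05 in the mutant (interaction 0.53, edgeR adjusted p = 1.2e-04). A second gene of this factor, atf4a, was listed but not matched to a gene ID. TRIB3, a pseudokinase, had an interaction of 1.34 (edgeR adjusted p = 2.9e-04). In PSAT1, an enzyme of serine synthesis, the change was 1.52 in wild type and 0.02 in the mutant (interaction -1.50, edgeR adjusted p = 9.4e-07). PSAT1 was also higher in the untreated mutant than in untreated wild type (1.12, edgeR adjusted p = 1.3e-06). ASNS, asparagine synthetase, changed by 0.58 and -0.20 (interaction -0.78, edgeR adjusted p = 3.0e-04) and was higher in the untreated mutant by 0.49. The values of atf4b and ASNS, and the interaction values of this paragraph, were chosen after they were seen. Of amino acid transporters 3 of 11 rose and 3 fell in wild type, and 5 rose and 3 fell in the mutant, with slc7a11, the cystine transporter, at 1.45 and 1.31. SLC6A9, a glycine transporter, fell by 0.55 in wild type and by 1.61 in the mutant, the largest change of the list there (edgeR adjusted p = 7.9e-06 and 4.5e-12).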

How the data were processed

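Raw read counts per Ensembl gene ID were used as deposited by the authors, 1 file for each of the 12 libraries and 32105 IDs in each. The submitters' processing notes name FastQC 0.11.5, Trimmomatic 0.36 and the build GRCz10. Which aligner and counter were used, and how strand and shared reads were handled, is not given in the sources used here. Per the labels' protocols, poly-A libraries were made from 100 ng of RNA.

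Symbols came from a table naming 26269 of the IDs. AARS2 and TARS2 were not analysed here, and neither were synthetase sequences and gene coordinates. The filter was filterByExpr (minimum count 10), passed by 23096 genes. With TMM scaling, edgeR 4.0.16 (glmQLFit, glmQLFTest) was fitted to the 4 groups of all 12 libraries at once. P-values were adjusted over all genes of a comparison (Benjamini-Hochberg) and called below 0.05. SE means standard error of a log2 fold change. Replicate pairs exceeded sampling noise, with chi-square per degree of freedom from 5.18 to 21.5, and the common biological coefficient of variation was 9%. The fit was tested on simulated counts.

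The members and lists were chosen with earlier results of these data known. Values by library follow a rule: the 8 largest changes with iAs, the 3 largest interactions and the 3 largest called genotype differences without iAs. Values given for other members were chosen after they were seen. The values of 2 members are not reported here, though class counts, medians and sums include them. Of 162 list entries 146 were matched. An entry ending in a or b could match every gene with the shortened symbol, so copies not listed may be counted. For enterocytes 6 of 7 entries were matched and gave 9 genes. Up to 3 called genes with the largest change with iAs were named from each list.

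The alternatives comprised library size alone, DESeq2 size factors, the DESeq2 1.42.0 test, a mean count minimum of 50, no filter, fits to only the groups compared, a replicate block, single libraries left out, another class for GARS1 and KARS1 and, chosen after seeing the data, HARS2 left out. R was 4.3.3, limma 3.58.1, Python 3.11.15, pandas 2.3.3 and matplotlib 3.10.9.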

Additional observations from a re-analysis of the deposited data

Results flagged for a closer look

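For 12 synthetases the response to iAs differed between the genotypes by the interaction test, given here as the log2 response of the mutant minus that of wild type. The differences were -0.82 for KARS1, -0.59 for IARS1, -0.52 for YARS1, -0.50 for TARS1, -0.46 for LARS1, -0.41 for WARS1, -0.39 for FARSB, -0.34 for GARS1, -0.32 for VARS1 and -0.25 for AARS1. Of the mitochondrial class, vars2 differed by -0.59 and HARS2, placed there by its symbol alone, by -0.35. All 12 were lower than 0. Over all genes 12.3% were called higher and 17.9% lower, and the 2 of 15 mitochondrial members were not above that share. The AARS1 call was lost in 13 of 18 alternative fits and the VARS1 call in 5. For KARS1, IARS1, TARS1, FARSB, VARS1, AARS1 and HARS2 the untreated mutant was already above untreated wild type, by 0.21 to 0.47. For LARS1, WARS1, YARS1, GARS1, KARS1 and vars2 the treated mutant was below treated wild type. Genotype and strain cannot be told apart.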

How the results depend on the processing

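Of 34 synthetases, 21 of 24 calls for iAs in wild type, 18 of 23 in the mutant, 6 of 12 and 10 of 14 for the genotypes without and with iAs, and 10 of 12 interactions held under every alternative, and no called value changed direction. Cytosolic negative interactions went from 8 to 12 with library size alone. Mitochondrial members higher with iAs in the mutant went from 2 to 1 with library size alone, 4 with GARS1 and KARS1 counted in the class and 1 without HARS2. Those higher in the untreated mutant went from 1 to 2 with GARS1 and KARS1 and to 0 without HARS2. Those lower in the treated mutant went from 5 to 3 with only the libraries compared. Those with a negative interaction went from 2 to 5 with library size alone, 4 with GARS1 and KARS1 and 1 without HARS2. With 1 library left out, the ranges were 2 to 5 mitochondrial members higher with iAs in wild type and 1 to 3 in the mutant, 5 to 10 cytosolic members higher in the untreated mutant, 3 to 5 mitochondrial members lower in the treated mutant, and 6 to 9 cytosolic and 2 to 4 mitochondrial negative interactions. Library size alone moved the interaction calls over all genes from 2842 higher and 4142 lower to 2110 and 5100, and their median from -0.05 to -0.12. LARS1 gained a call in the mutant with DESeq2, DESeq2 size factors and the higher count minimum. The KARS1 and GARS1 calls in the mutant were lost with library size alone (edgeR adjusted p = 0.0565 and 0.0515). The AARS1 interaction call was lost with DESeq2 (DESeq2 adjusted p = 0.0760). The cause was not tested.

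Same-numbered libraries of different groups did not deviate together (18 pairs, correlations from -0.0276 to 0.0695). They were therefore treated as unpaired, though this does not show what the number stands for. With the replicate number as a block 17 cytosolic and 5 mitochondrial synthetases rose in wild type, and QARS1 gained an interaction call (-0.26, edgeR adjusted p = 0.0459).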
